A study of Caenorhabditis elegans with 2 samples.

Results

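The nuclear genes of the mitochondrial respiratory chain were examined as a group for binding of MAB-5, the Antennapedia-class Hox protein of posterior identity in Caenorhabditis elegans. The group was drawn up by gene name from nuclear protein-coding genes of Ensembl WBcel235, using the name roots nuo, nduf, sdha, sdhb, sdhd, ucr, cyc, isp, cox and atp, and adding gas-1, mev-1 and lpd-5. It holds 48 of 19973 nuclear protein-coding genes. Subunit genes under other names exist for several complexes, so each share below is that of the genes with these name roots and not of the whole complex. A gene is called bound when the summit of a peak in the optimal list lies between 2000 bp upstream and 500 bp downstream of its start. The optimal list is the authors' list of peaks kept by the irreproducible discovery rate (IDR), a procedure that weighs how peaks rank in replicates. The word says nothing of regulation.

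Chromatin was immunoprecipitated from whole second-stage (L2) larvae of strain OP27, of mixed sex and unknown age, and sequenced. The strain is labelled unc-119(ed3) III; wgIs27, wgIs27 being the integrated insertion that targets mab-5, and the protein carries eGFP. The labels list the antibody under mab-5. There is 1 group with 2 biological replicates, and neither a control nor another condition was analysed here. The labels do not say whether the native mab-5 gene is intact. Whole animals mix all tissues, so a peak cannot be placed in a cell type.

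The respiratory chain passes electrons from NADH and succinate to oxygen and uses the energy to pump protons across the inner mitochondrial membrane. Complex I oxidises NADH, complex II oxidises succinate, and complex III passes the electrons from ubiquinol to cytochrome c. Complex IV reduces oxygen, and complex V, the ATP synthase, makes ATP from the proton gradient. Most subunits are encoded in the nucleus and imported, while a few are encoded in mitochondrial DNA. RefSeq gave a product name for all 48 members. The roles below follow these names or, where the product is named only by a domain or a code, as for cyc-1, ucr-2.2, cox-15 and cox-19, general knowledge of the gene family. The genes cyc-2.1 and cyc-2.2 encode cytochrome c itself, so they were counted apart from the complexes, and 8 of the 15 cox genes were taken as assembly factors and not subunits.

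The sequences around the summits show what chromatin was recovered at these genes. A bound member of each complex and of cytochrome c is shown at its strongest summit, together with cox-10 at its summit 1877 bp upstream. In complexes III and V the strongest summits were those of ucr-11 and atp-1, which are not shown. Each line gives 201 bases centred on the summit, 5′ to 3′ on the strand of the gene, from the RefSeq copy of build WBcel235. Capitals mark TAATTA, a homeodomain core, TGATNNAT, the composite that Hox and PBC proteins bind jointly, and TGACGCA, all searched on both strands. The windows of nduf-2.2, cyc-2.1 and atp-2 held none of these, and of the windows shown only that of cox-10 held TGATNNAT. Every member summit with TAATTA or TGACGCA is among those shown, so their motif content does not stand for that of all 18 bound members.
nduf-2.2, chrIII:6464283-6464483, plus strand: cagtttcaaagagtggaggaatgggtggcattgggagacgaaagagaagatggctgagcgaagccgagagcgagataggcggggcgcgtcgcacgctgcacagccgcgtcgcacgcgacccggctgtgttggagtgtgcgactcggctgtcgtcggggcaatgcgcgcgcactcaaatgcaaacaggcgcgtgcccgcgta
mev-1, chrIII:10334017-10334217, plus strand: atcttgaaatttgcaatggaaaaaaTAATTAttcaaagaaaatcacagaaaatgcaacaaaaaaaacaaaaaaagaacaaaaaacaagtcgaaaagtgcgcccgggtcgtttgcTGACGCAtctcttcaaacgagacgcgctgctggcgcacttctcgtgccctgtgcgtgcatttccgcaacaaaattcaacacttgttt
ucr-2.2, chrX:15173573-15173773, plus strand: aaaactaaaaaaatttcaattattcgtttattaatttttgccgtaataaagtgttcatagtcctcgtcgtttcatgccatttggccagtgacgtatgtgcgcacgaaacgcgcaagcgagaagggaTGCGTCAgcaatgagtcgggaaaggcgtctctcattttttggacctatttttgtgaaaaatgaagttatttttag
cyc-2.1, chrIV:4749964-4750164, minus strand: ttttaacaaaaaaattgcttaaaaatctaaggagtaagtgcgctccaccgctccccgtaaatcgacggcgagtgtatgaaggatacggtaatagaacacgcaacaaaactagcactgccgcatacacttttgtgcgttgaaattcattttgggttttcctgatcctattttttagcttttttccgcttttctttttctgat
cox-5A, chrIII:12905090-12905290, plus strand: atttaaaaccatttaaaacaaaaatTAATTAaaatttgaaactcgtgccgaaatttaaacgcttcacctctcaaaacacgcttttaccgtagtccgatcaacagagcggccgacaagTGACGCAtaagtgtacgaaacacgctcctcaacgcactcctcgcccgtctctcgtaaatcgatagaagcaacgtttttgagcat
atp-2, chrIII:5228061-5228261, plus strand: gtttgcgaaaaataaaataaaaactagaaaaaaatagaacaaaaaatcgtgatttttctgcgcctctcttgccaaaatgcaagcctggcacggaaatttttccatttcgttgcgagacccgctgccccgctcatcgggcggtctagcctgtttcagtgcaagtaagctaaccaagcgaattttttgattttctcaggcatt
cox-10, chrII:12677977-12678177, plus strand: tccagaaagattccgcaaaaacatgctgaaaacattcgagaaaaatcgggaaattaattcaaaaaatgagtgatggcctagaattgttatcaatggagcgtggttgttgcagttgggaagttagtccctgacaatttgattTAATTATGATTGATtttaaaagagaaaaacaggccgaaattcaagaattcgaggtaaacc

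Of the 48 members, 18 were bound (37.5%, 95% Wilson interval 25.2 to 51.6). No members shared a strongest peak with each other, though 11 of the 18 shared it with genes outside the group. Of all nuclear protein-coding genes, 1916 were bound (9.59%). The intervals cover counting error only, and no test was made over genes. The 18 are nduf-2.2, nduf-11 and nuo-1 of complex I, mev-1 and sdha-1 of complex II, ucr-11, cyc-1 and ucr-2.2 of complex III, cyc-2.1 of cytochrome c, cox-5A, cox-5B, cox-6A, cox-4, cox-14 and cox-10 of complex IV, and atp-1, atp-2 and atp-3 of complex V.

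Every complex had a bound gene. Complex V had the highest share, 3 of 5 genes (60%, interval 23.1 to 88.2), and complex I the lowest, 3 of 14 (21.4%, interval 7.57 to 47.6). Complex III had 3 of 7 (42.9%, interval 15.8 to 75.0), complex II 2 of 5 (40%, interval 11.8 to 76.9) and complex IV 6 of 15 (40%, interval 19.8 to 64.3). Of the cytochrome c genes 1 of 2 was bound (interval 9.45 to 90.5). The intervals of the complexes overlap, so their order is not resolved at these numbers. Those of complex I and cytochrome c also hold the 9.59% of all genes. The first 2197 peaks of replicate 1 alone gave 1 gene in complex V and 1 in complex II, and those of replicate 2 alone gave 4 and 2. Within complex IV, 4 of 7 subunit genes were bound (57.1%, interval 25.0 to 84.2) and 2 of 8 assembly factor genes (25%, interval 7.15 to 59.1). Those intervals overlap too, and that of the assembly factors holds 9.59%. Complex I genes with the name roots ndua, ndub, nduc, nduv, ndus and ndab, which the name rule leaves out, were counted after their values were seen. Of these 21 genes 6 were bound (28.6%, interval 13.8 to 49.96), which gives 9 of 35 (25.7%, interval 14.2 to 42.1) with the members. Of 5 listed complex V genes with other names, asb-1, asb-2, asg-1, asg-2 and hpo-18, 1 was bound (20%, interval 3.62 to 62.4). The rule leaves these out too, and the list was not checked for completeness. The 60% of complex V is therefore that of its atp genes only.

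**Figure D1:**
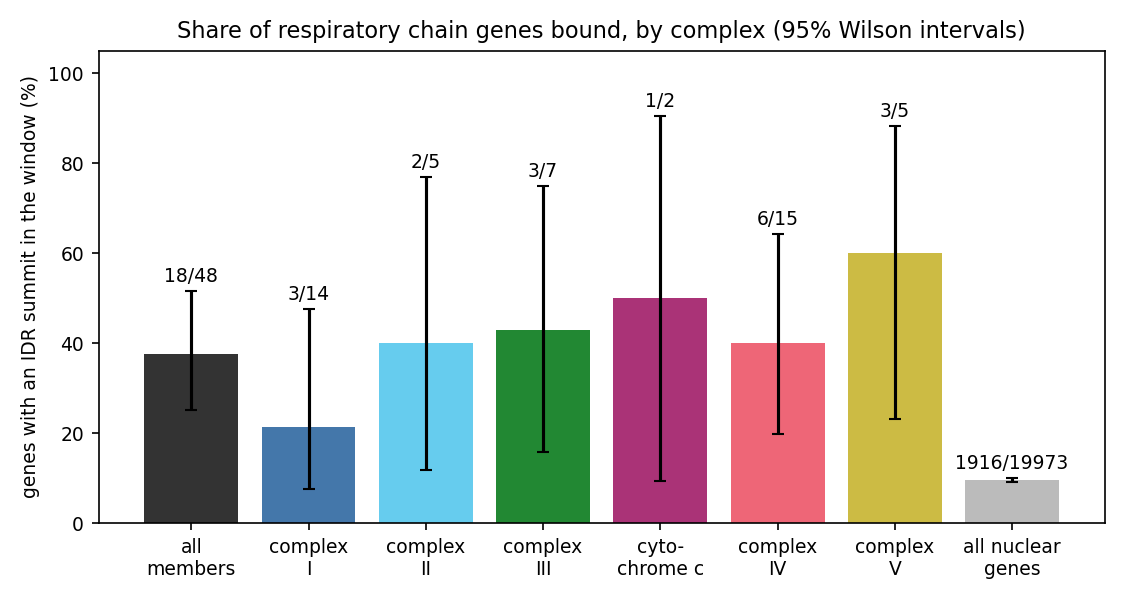
Percentage of genes with an IDR summit in the promoter window, for all 48 members, the members in each complex, those of cytochrome c, and all nuclear protein-coding genes. Bars give the share, lines its 95% Wilson interval, and the numbers above them bound genes over all genes; the share runs from 21.4% in complex I to 60% in complex V, against 9.59% of all genes.

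The strength of the bound members was spread widely. The authors' signal, 1 pooled value per peak on a scale that no label or header states, ran from 33.4 to 268 with a median of 50.4. Over the 1916 bound genes the median was 47.4 and the range 29.6 to 336. By complex the medians were 59.2 for complex I, 45.4 for complex II, 52.4 for complex III, 48.6 for complex IV and 44.0 for complex V. The pooled signal carries no replicate error, but each replicate's own list also gives a signal per peak. It was 114 and 156 for cyc-2.1 in replicates 1 and 2. For nduf-11 it was 16.2 and 40.1, and for atp-2 5.28 and 35.9. Ranks are used below to set the replicates side by side. They come from the 30000 peaks of each replicate, rank 1 being the strongest.

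The members with the strongest peaks in their windows encode cytochrome c and a subunit of the oxidase that takes its electrons. The peak of highest signal was in the window of cyc-2.1 (WBGene00017121), which encodes cytochrome c, the mobile carrier between complexes III and IV. It lay on chromosome IV at 4749956 to 4750197, 1052 bp upstream of the gene start, with a signal of 268 and ranks of 26 in replicate 1 and 34 in replicate 2. The summit was nearer to other genes, 176 bp upstream of Y17G9B.5 on the opposite strand and 286 bp upstream of rpl-20, a ribosomal protein gene that ends 111 bp before cyc-2.1 on the same strand. A weaker summit lay 413 bp downstream of the cyc-2.1 start (signal 39.4, ranks 1454 and 1212). The other cytochrome c gene, cyc-2.2, had no summit in its window in any list.

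Next came cox-5A (WBGene00012553, chromosome III, 12905491 to 12906619, plus strand), which encodes subunit 5A of cytochrome c oxidase. Its peak at 12905075 to 12905316 lay 301 bp upstream with a signal of 229.5, and ranked 35 in replicate 1 and 40 in replicate 2. No other protein-coding gene had this summit in its window. A weaker summit lay 1236 bp upstream, with a signal of 63.5 and ranks of 290 in replicate 1 and 1836 in replicate 2.

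The remaining bound complex IV subunits were weaker. The cox-5B summit lay 40 bp upstream (signal 86.4, ranks 270 and 328 in replicates 1 and 2), with a weaker one 858 bp upstream (signal 46.6, ranks 550 and 1295). The summits of cox-6A, 765 bp upstream (signal 35.8, ranks 1634 and 1151), and cox-4, 454 bp upstream (signal 35.1, ranks 2145 and 1377), were among the weakest of the group. The subunit genes cox-6B, cox-6C and cox-7C were not bound.

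Of the assembly factors, cox-14, whose product RefSeq names as an assembly factor, had a summit 161 bp upstream with a signal of 49.2 and ranks of 1571 and 647 in replicates 1 and 2. That summit was nearer to rde-4, at 135 bp on the opposite strand. The cox-10 gene, which encodes the enzyme that farnesylates haem for cytochrome c oxidase, had summits 1877 bp upstream (signal 48.0, ranks 1399 and 1054) and 140 bp upstream (signal 46.4, ranks 1120 and 1112). The farther summit lay 267 bp upstream of Y38E10A.22 on the opposite strand. The copper chaperone gene cox-17 and cox-11, cox-15, cox-16, cox-18 and cox-19 were not bound.

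For complex V, the bound genes encode parts of the catalytic head and of the stalk that holds it. The summit of atp-1, which encodes the alpha subunit, lay 8 bp upstream of the start on chromosome I at 12652180 to 12652359 (signal 112, ranks 271 and 108 in replicates 1 and 2). The peak of atp-2, which encodes the catalytic beta subunit, lay 256 bp upstream and had a signal of 44.0. It ranked 621 in replicate 2 but only 9764 in replicate 1. The summit of atp-3, which encodes the oligomycin sensitivity conferral protein, lay 2 bp upstream (signal 33.4, ranks 3674 and 1282). Genes for coupling factor 6 and subunit d, atp-4 and atp-5, were not bound. All 3 complex V summits ranked better in replicate 2 than in replicate 1.

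The bound complex III genes were led by ucr-11, which RefSeq names as subunit 10, with a signal of 109 and ranks of 117 and 221 in replicates 1 and 2. Its summit lay 1314 bp upstream, 36 bp upstream of the trehalase gene tre-1 on the opposite strand and 403 bp upstream of dad-1, which lies 102 bp before ucr-11 on its strand. Cytochrome c1, the product of cyc-1, hands electrons to cytochrome c. The cyc-1 summit lay 274 bp upstream (signal 52.4, ranks 701 and 831). The core protein gene ucr-2.2 had one 231 bp upstream (signal 42.0, ranks 1543 and 1283). The Rieske iron-sulfur protein gene isp-1 and the core protein genes ucr-1, ucr-2.1 and ucr-2.3 were not bound.

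In complex II, mev-1, which encodes the large cytochrome b subunit, had a summit 160 bp upstream with a signal of 51.6 and ranks of 823 and 775 in replicates 1 and 2. The same summit lay 99 bp upstream of jmjd-4 on the opposite strand. The flavoprotein gene sdha-1 had a summit 208 bp upstream (signal 39.2, ranks 2676 and 1203). The paralogous flavoprotein gene sdha-2, the iron-sulfur subunit gene sdhb-1 and the small cytochrome b subunit gene sdhd-1 were not bound.

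Of the 14 complex I members 11 were unbound. The strongest of the bound members was nduf-2.2, a 49 kD subunit gene, 839 bp upstream with a signal of 66.2 and ranks of 769 and 552 in replicates 1 and 2. Its summit lay nearer to the dynein light chain gene dlc-1, at 604 bp on the opposite strand. Second was nduf-11, which encodes another subunit, 213 bp upstream (signal 59.2, ranks 1471 and 492). The NADH-binding flavoprotein gene nuo-1 had a summit 234 bp upstream (signal 37.2, ranks 3288 and 1025), which also lay 399 bp upstream of the ribosomal protein gene rpl-36.A. The gene gas-1, which encodes the iron-sulfur protein of the same kind as nduf-2.2, was not bound, nor were nuo-2, nuo-3, nuo-4, nuo-5, nuo-6, nduf-5, nduf-6, nduf-7, nduf-9 and lpd-5. Among complex I genes outside the name rule, ndub-8 (signal 109.6), ndua-8 (102) and nduc-2 (85.9) had a higher signal than nduf-2.2, and nduv-3 (61.8), ndab-2 (61.0) and ndua-2 (33.8) a lower one.

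**Figure D2:**
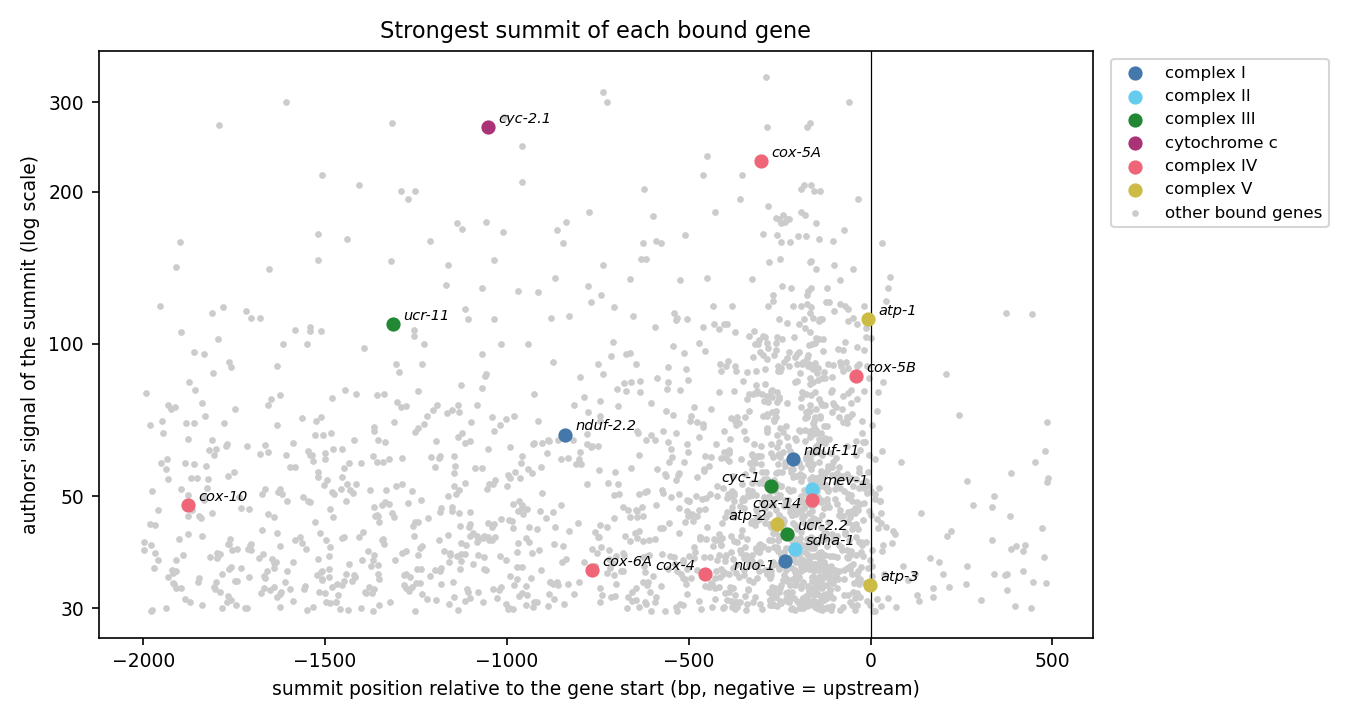
Position of the strongest summit relative to the gene start, in bp, against the authors' signal on a log scale, for the 18 bound members, coloured by complex, and for all other bound genes in grey. The members cyc-2.1 (268) and cox-5A (229.5) stand at the top, and 13 of the 18 lie within 500 bp of the start.

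The replicates ranked most of these peaks high in both lists, with replicate 2 ahead more often. Taking the strongest peak of each of the 18, both ranks were 2197 or better for 14 of them, 2197 being the length of the IDR list (77.8%, against 67.1% of the 1916 bound genes). With a mutual overlap of at least 50% required to match peaks, the number was 11. With peaks matched by at least 1 bp, all 18 ranked 2197 or better in replicate 2, and 14 in replicate 1. The exceptions were nuo-1, sdha-1, atp-2 and atp-3. Replicate 2 gave the better rank for 13 of the 18 (72.2%, against 54.6% of bound genes). The median rank of the members' peaks was 1435 in replicate 1 and 711 in replicate 2, whereas over all bound genes the medians were 1031 and 987.5. In complexes IV and III all bound genes passed in both replicates, 6 of 6 and 3 of 3, and in complex V 1 of 3 did.

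Each replicate's list could also be read without the IDR list. In the promoter window 15 members had a summit among the first 2197 peaks of replicate 1 (31.3%, against 9.23% of all genes) and 20 among those of replicate 2 (41.7%, against 9.37%). Both replicates had one for 14 members (29.2%, against 6.62% of all genes). The members reached only in replicate 2 beyond the IDR calls were atp-5 and cox-6C, and only in replicate 1 it was ucr-2.1.

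**Figure D3:**
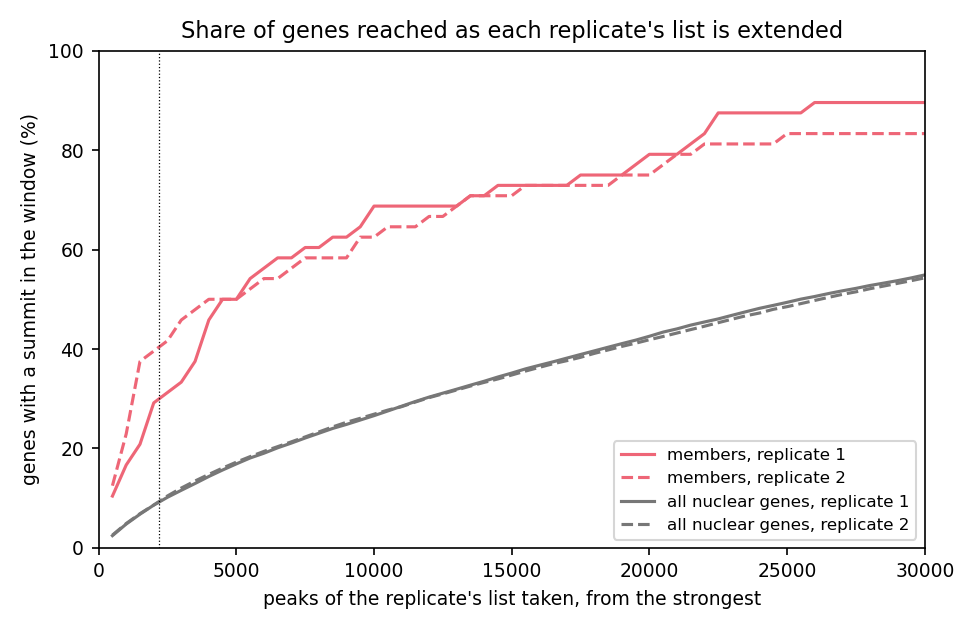
Percentage of genes with a summit in the promoter window (vertical axis) as more peaks of a replicate's list are taken from the strongest down (horizontal axis), for the 48 members in red and all nuclear genes in grey, replicate 1 solid and replicate 2 dashed. The dotted line marks 2197 peaks; both red curves lie above both grey ones throughout, and end at 89.6% and 83.3%, against 54.9% and 54.3%.

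Below the threshold of the IDR list, many unbound members had weak peaks. The weakest bound member was atp-3 (signal 33.4, pooled rank 1825). Just outside stood atp-5, 252 bp upstream, with a pooled signal of 29.2 and a pooled rank of 2235, and ranks of 4394 and 2006 in replicates 1 and 2. The lowest signal in the IDR list was 29.6. Of the other complexes, the unbound member with the best pooled rank was ucr-1 in complex III (rank 2630, signal 26.4), cox-6C in complex IV (3002, signal 24.1), nuo-2 in complex I (3076, signal 23.7) and sdha-2 in complex II (5998, signal 14.7).

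Within the first 5000 peaks of the pooled list, 25 of the 48 members had a summit in the window (52.1%, against 17.8% of all genes). These 25 include the 18 bound members, whose peaks lie within the first 2197 of that list. A summit in the relaxed lists of both replicates was found for 37 members (77.1%, against 38.3% of all genes), again with the bound ones included. Of the 30 unbound members 19 had one, and the share over all unbound genes was not counted. The relaxed lists contain background as well as peaks, per the deposited text record. Of the 30 unbound members, cyc-2.2 and cox-19 had no summit in the window in any list.

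**Figure D4:**
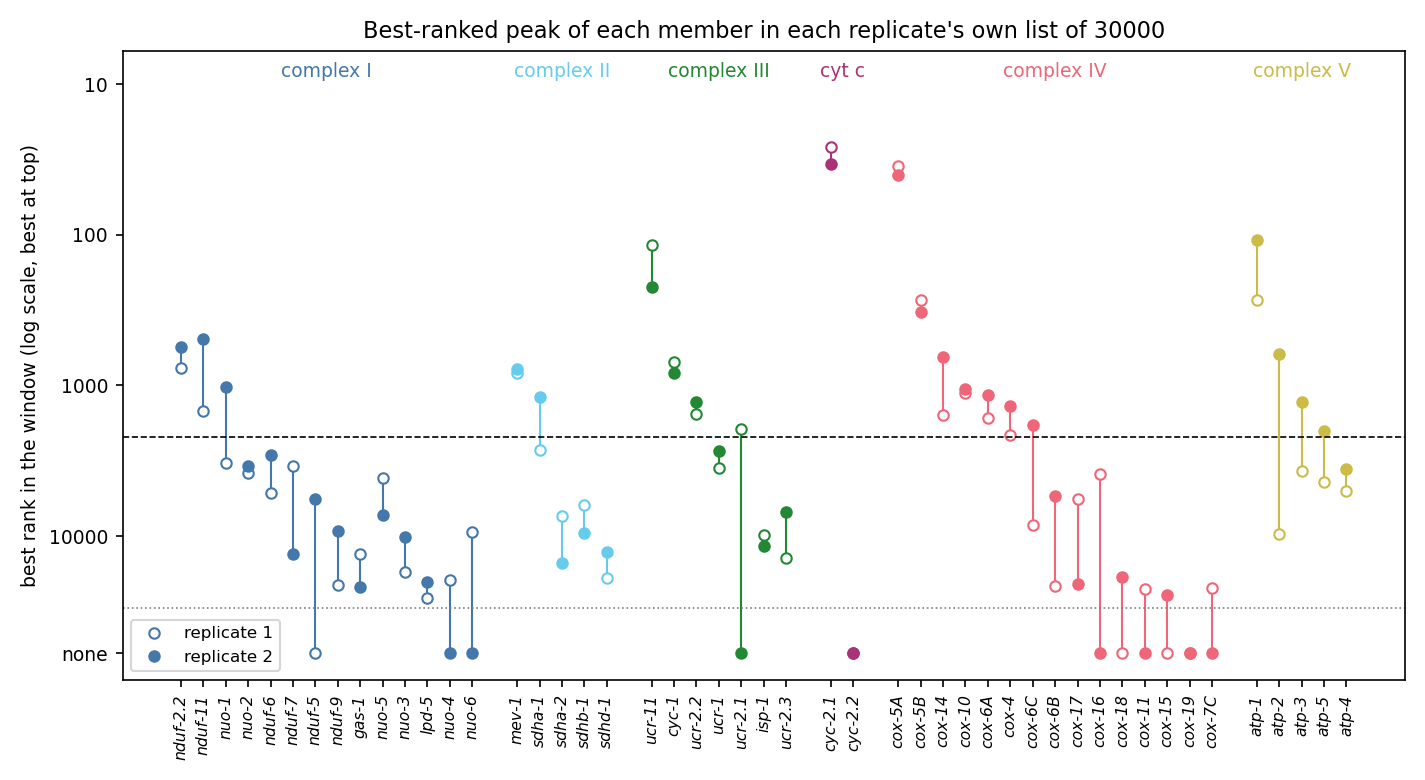
Best rank of a peak with its summit in the promoter window of each of the 48 members, in replicate 1 (open circles) and replicate 2 (filled circles), on a log scale with rank 1 toward the top, grouped by complex. The dashed line marks rank 2197 and the dotted line rank 30000, and members with no such peak are drawn at none; cyc-2.1 and cox-5A stand highest in both replicates, and 14 members lie above the dashed line in both.

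Most bound members had their summit close to the start and between genes. The summits lay within 500 bp of the start for 13 of 18 (72.2%), against 59.2% of all bound genes, and the median was 245 bp upstream, against 340.5 bp. The strongest summits of all 18 lay between protein-coding genes, as did 87.2% of the 1247 strongest summits of all bound genes, which were chosen by the same window, and 70.0% of the 2174 nuclear IDR summits wherever they lay. More than 1 summit in the window was found for cyc-2.1, cox-5A, cox-5B and cox-10 (22.2%, against 4.59% of bound genes).

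Several summits could belong to a neighbour as well. For 11 of the 18 (61.1%) the summit lay in the window of another gene, against 62.9% of all bound genes. In all 11 at least 1 such gene was on the opposite strand (61.1% of the 18, against 55.5% of all bound genes). The member's own start was the nearest for 12 of 18 (66.7%), against 63.3% of bound genes. The exceptions were cyc-2.1, ucr-11, nduf-2.2, mev-1, cox-14 and the farther site of cox-10. When each summit went only to the gene with the nearest start, 14 members kept one (29.2%, against 6.19% of all genes), cyc-2.1 and cox-10 through their second summits. Only nuo-1 and cyc-2.1 shared their strongest summit with a ribosomal protein gene.

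Closely spaced genes on 1 strand are common in this genome and are often transcribed together as operons. A same-strand gene ended within 500 bp upstream of 16 of the 48 members (33.3%), against 18.1% of all genes. Of these 16, 6 were bound (37.5%), and of the other 32, 12 were bound (37.5%). Over all genes the shares were 8.19% with such a neighbour and 9.90% without.

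Bound members lay on 5 of the 6 nuclear chromosomes. Chromosomes I and III carried 6 of 15 and 6 of 12 bound members, with 12.9% and 15% of all their genes bound. Chromosome II carried 3 of 6, against 8.81% of its genes, and X 2 of 4, against 8.75%. Chromosome IV carried 1 of 6, against 9.42%. On chromosome V none of 5 members was bound (Wilson upper limit 43.4%), and 5.95% of its genes were bound.

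Motif shares at the member summits were set beside those at the 1247 strongest summits of all bound genes, which were chosen by the same window, and at all 2174 nuclear IDR summits. Within 100 bp of the summit, TGATNNAT was present at 3 of 18, cox-10, nuo-1 and ucr-11 (16.7%, against 16.5% at the strongest summits of bound genes and 21.8% at all). Its narrower form TGATTNAT, contained in it, was present at cox-10 and ucr-11 (11.1%, against 9.22% and 12.4%). TAATTA was present at cox-10, cox-5A and mev-1 (16.7%, against 5.21% and 5.01%). These shares rest on 2 or 3 member summits each. GAGAGAG was present at 0 of 18 (Wilson upper limit 17.6%), against 20.0% and 22.3%. CACGTG was also at 0 of 18, against 4.81% and 5.70%, as were TGACGTCA, against 1.84% and 1.33%, and GCGCAGGG, against 0.561% and 0.920%. The GC content of the 201 bases had a median of 40.0% (range 32.3 to 63.7), against 42.8% and 43.3%, and was highest at nduf-2.2.

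Other genes of mitochondrial respiration were read from a separate list of names, of which 1, sdhaf-1, had no match. Of 56 genes 19 were bound (33.9%, interval 22.9 to 47.0, against 9.59% of all genes). The citric acid cycle, which feeds NADH and succinate to the chain, had 8 of 15 bound. These were dld-1 (signal 177), aco-2 (80.5), idhb-1 (69.1), sucl-1 (62.8), idhg-1 (52.3), suca-1 (44.1), cts-1 (38.8) and mdh-2 (34.5). For dld-1, which encodes dihydrolipoamide dehydrogenase, the ranks were 74 and 58 in replicates 1 and 2.

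Transport across the mitochondrial membranes had 7 of 17 genes bound (41.2%, interval 21.6 to 64.0, against 9.59% of all genes). The strongest was ant-1.1, an ADP/ATP carrier gene (signal 113, ranks 83 and 238). The protein import genes tomm-20 (signal 98.1), timm-17B.1 (64.5), tin-13 (62.1), timm-23 (56.6), tin-9.2 (54.4) and tin-9.1 (39.5) made up the rest. Among assembly genes, the copper delivery gene sco-1 (signal 129, ranks 88 and 127) and bcs-1 (signal 40.9) were bound, 2 of 6 (interval 9.68 to 70.0). The listed ATP synthase genes with other names had 1 of 5, asb-2 (signal 53.4), and genes for upkeep of mitochondrial DNA had 1 of 4, mtss-1 (signal 41.4). Their intervals, 3.62 to 62.4 and 4.56 to 69.9, both hold 9.59%. None of 8 ubiquinone synthesis genes was bound (Wilson upper limit 32.4%), and let-721 was not bound. That limit lies above 9.59%, so the count does not set the ubiquinone genes apart from all genes.

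The mitochondrial genome, whose 12 protein-coding genes encode subunits of complexes I, III, IV and V, carried 23 IDR peaks. Their signal ran from 179 to 2543, with a median of 712, and all lay within the first 55 ranks of the IDR list. The strongest nuclear members, cyc-2.1 and cox-5A, ranked 31 and 36 there. Some of the 23 mitochondrial peaks overlap, such as 11307 to 11734 and 11307 to 11752, so they are not all separate sites. The peak at 856 to 945 had no match in either replicate's list. That at 2657 to 2894 had none in replicate 1, and that at 8753 to 8888 none in replicate 2. Mitochondrial DNA is present in many copies per cell, and signals of the different genomes are given side by side without a comparison.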

How the data were processed

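For each of the 2 replicates and for their pooled alignments the authors deposited 30000 relaxed peaks, called against a control per the deposited text record, and from these an optimal IDR list of 2197 peaks. Software and the cutoff for IDR are not given in the sources consulted. Only the lists on build ce11 were used. The authors deposited a signal score per peak, used to rank and describe peaks within a list, a −log10 q-value with a ceiling, which was not used to rank, and a summit offset in bp. All 2197 IDR peaks were the 2197 pooled peaks of highest signal. The lists hold no read counts, so the sequencing depth is unknown. The replicates shared 0 peaks of the same position and signal.

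Genes came from Ensembl release 115 (WBcel235, which is ce11), and all peaks fell within its chromosome lengths. Gene starts in this annotation may be trans-splice sites, downstream of the true start. A peak was traced to a replicate's list by sharing at least 1 bp, and the best-ranked match was taken. Shares have 95% Wilson intervals. Python 3.11.15, numpy 2.4.6, pandas 2.3.3, scipy 1.17.1 and matplotlib 3.10.9 were used, and window and nearest-start assignments were checked on planted summits. No test was made, since there is 1 group and genes are not replicates. Every bound member is named, and the best-ranked unbound member of each complex is given. The members and lists were chosen with earlier results of these data known, and TGACGCA and the further complex I name roots were added after values were seen. Alternatives changed the window, the assignment of summits, the gene start, the peak list and the peak matching.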

Additional observations from a re-analysis of the deposited data

How the results depend on the processing

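Against 18 bound members, alternatives to the window, the gene start and the peak list gave 14 to 25, except that the 1098 IDR peaks of highest signal, called the stricter list here, gave 11 and lost nuo-1, sdha-1, ucr-2.2, cox-4, cox-6A, atp-2 and atp-3. Leaving out a replicate gave 15 to 20 members, 2 to 3 in complex I, 1 to 2 in complex II, 3 to 4 in complex III, 1 in cytochrome c, 6 to 7 in complex IV and 1 to 4 in complex V, and 9.23% to 9.37% of all genes. With replicate 1 alone complex V kept atp-1 only, and complex II mev-1 only. The stricter list left 1 gene in complex II and 1 in complex V, the nearest start 1 in complex II, and the window of 5000 bp upstream gave 7 in complex I. The share of all genes bound was 7.32% and 5.83% with windows of 1000 and 500 bp upstream, 15.1% with 5000 bp, 6.19% with the nearest start, 10.3% with the start of any transcript, 5.36% with the stricter list, and 9.01% without summits in windows of ribosomal protein genes, an alternative chosen after seeing the data, which left 17 members. The members' share was 3.38 to 5.36 times that of all genes over these settings. Bound in every setting were nduf-11, cyc-1, cyc-2.1, cox-5A, cox-5B, cox-10 and atp-1. The median signal of bound members was 46.4 with the 1000 bp window, 43.0 with the nearest start and 66.2 with the stricter list. Within the first 1098 of both replicates' lists were 8 bound members. The lists give no depth, and complexes of 5 to 15 genes leave wide intervals.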

Other observations

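The heptamer TGACGCA was noticed in the printed sequences and then counted. All 3 member summits that held it were among those printed, so its share among these genes restates that sighting and is a description. Within 100 bp of the summit it was present at cox-5A, mev-1 and ucr-2.2, 3 of 18 member summits (16.7%), and at 111 of all 2174 nuclear IDR summits (5.11%). Among the 1247 strongest summits of all bound genes the share was 7.14%. At cox-5A and mev-1 the same window also held TAATTA.

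Paralogous genes differed in whether they were bound under the main rule. Of the cytochrome c genes cyc-2.1 was bound and cyc-2.2 was not, of the flavoprotein genes of complex II sdha-1 was and sdha-2 was not, of the complex I genes nduf-2.2 and gas-1 only the first was, and of ucr-2.1, ucr-2.2 and ucr-2.3 only ucr-2.2. These genes were set side by side after their values were seen, and no test was made. Only the cytochrome c contrast held in every setting, and the strongest cyc-2.1 summit was nearer to other genes. The window of 500 bp upstream and the nearest start lost nduf-2.2. Replicate 1 alone lost sdha-1 and gained ucr-2.1, and the stricter list lost sdha-1 and ucr-2.2. Unbound sdha-2, gas-1 and ucr-2.3 had weaker summits in the relaxed lists of both replicates. How often paralogous genes differ over all genes was not counted. The gene ucr-2.1 had a summit at rank 1959 in replicate 1 and none in replicate 2.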
